A study of Homo sapiens with 36 samples.

Results

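The proteins described here form the rings and the particle-specific parts of the small nuclear ribonucleoproteins (snRNPs), the RNA-protein particles of the spliceosome. Their genes were chosen by symbol: LSM followed by a number, SNRP followed by a letter from A to N, or SNRNP, with pseudogenes left out and only probe sets that carry 1 gene symbol. The rule found 31 genes among 19775 genes on the array, of which 30 code for proteins and 1, SNRPF-DT, is a divergent non-coding transcript caught by its letters alone. The choice used no measured value, but the genes were taken up with earlier results of these data known. LSM14A and LSM14B have a letter after the number and were counted with the decay factors.

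The study compared the RNA of pseudopods (PS), the protrusions a cell pushes through a porous filter, with the RNA of cell bodies (CB) left on the upper side, both scraped from the same kind of filter. The labels name 6 human cancer cell lines with no drug or gene transfer, each with 3 pseudopod and 3 cell body arrays: U87 and U251 (glioma), HT1080 (fibrosarcoma), DU145 (prostate carcinoma), MDA231 (breast carcinoma) and MDA435 (a line whose breast or melanoma origin is disputed), which gives 36 Affymetrix arrays. The first 3 lines were grown in DMEM and the other 3 in RPMI-1640, so medium differs between lines and not between fractions of a line. All fractions came from serum-fed cultures on filters, and the labels do not say whether the 3 replicates were separate cultures, so p-values measure the spread between these arrays, which may be technical.

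As background, a ring of Sm proteins (SNRPB or SNRPN, SNRPD1, SNRPD2, SNRPD3, SNRPE, SNRPF and SNRPG) is built around the U1, U2, U4 and U5 small nuclear RNAs in the cytoplasm by the SMN complex, after which the particle enters the nucleus. Related LSm proteins form a nuclear ring with LSM8 that binds U6 RNA in the spliceosome, and a cytoplasmic ring with LSM1 that helps to remove the cap of messenger RNAs that are being degraded. LSM2 to LSM7 belong to both rings. LSM10 and LSM11 replace Sm proteins in the U7 particle, which processes histone pre-mRNA. The arrays measured the messenger RNAs of these proteins, not the proteins or the particles.

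Every array was scaled to nearly the same trimmed mean intensity, 149.18 to 149.59, and array medians lay between 18.2 and 30.6. Each array correlated best with an array of its own line (0 of 36 exceptions), but E-cadherin (CDH1), an epithelial adhesion protein, set some arrays apart from others of their label. In MDA231, CDH1 was 4.5, 13.7 and 1299.2 in pseudopods against 8.2, 1777.5 and 2.2 in cell bodies. In MDA435, CDH1 was 2072.7, 921.5 and 33.2 in pseudopods against 32.8, 1044.1 and 2463.0 in cell bodies, and the melanocyte and neural crest factor SOX10 was 1086.8, 1266.8 and 2001.5 in pseudopods against 2450.1, 1121.4 and 883.6 in cell bodies. In DU145, CDH1 was 319.0, 1488.7 and 1349.9 in pseudopods against 2237.2, 2020.0 and 857.1 in cell bodies, and EPCAM, another epithelial surface protein, was 567.0, 2358.3 and 2095.9 in pseudopods against 3040.8, 3032.0 and 1228.6 in cell bodies. Of 4 mesenchymal markers 3 were lower in pseudopods; their summed level in U87 was 6716.7 to 9726.2 in pseudopods against 10310.3 to 14178.8 in cell bodies, and in DU145 3202.7 to 3572.9 in pseudopods against 2741.6 to 3359.5 in cell bodies. Of 4 glial markers 3 were lower too, with a sum in U251 of 4423.3 to 5464.7 in pseudopods against 7040.0 to 8079.1 in cell bodies. No marker of either list was at 0 in any array, and the part of these markers in the results below was not tested.

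Messenger RNAs of the snRNP core were higher in pseudopods. Averaged over the 6 lines, 25 of 29 tested genes rose in pseudopods (limma, Benjamini-Hochberg adjusted p under 0.05), 1 fell (SNRNP200) and 3 were not called (SNRNP40, LSM11 and SNRNP70). Over all 15399 genes tested, 29.5% were called higher and 20.8% lower, so the share of called members, 86.2%, lay well above the background. The median difference was 0.47 on the log2(intensity + 16) scale for the members and 0.05 for all genes. Of all calls 58.7% were higher as deposited and 73.6% with equal array medians, a scaling that moved the median of all genes to 0.17 and that of the members to 0.63 and under which SNRNP40, LSM11 and SNRNP70 were also called higher. Of the 25, 23 were higher in every one of the 6 lines, as were 3771 of the 4550 genes called higher among all tested. As a share of those tested, that was 79.3% of members and 24.5% of all genes. The exceptions among the 25 were LSM10, with -0.0007 in MDA231, and SNRNP48, which was lower in DU145 and MDA435 by value. Since equal amounts of RNA were labelled, a value is a gene's share of a fraction's RNA; more of a messenger per cell piece and less of the other RNA cannot be told apart.

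**Figure D1:**
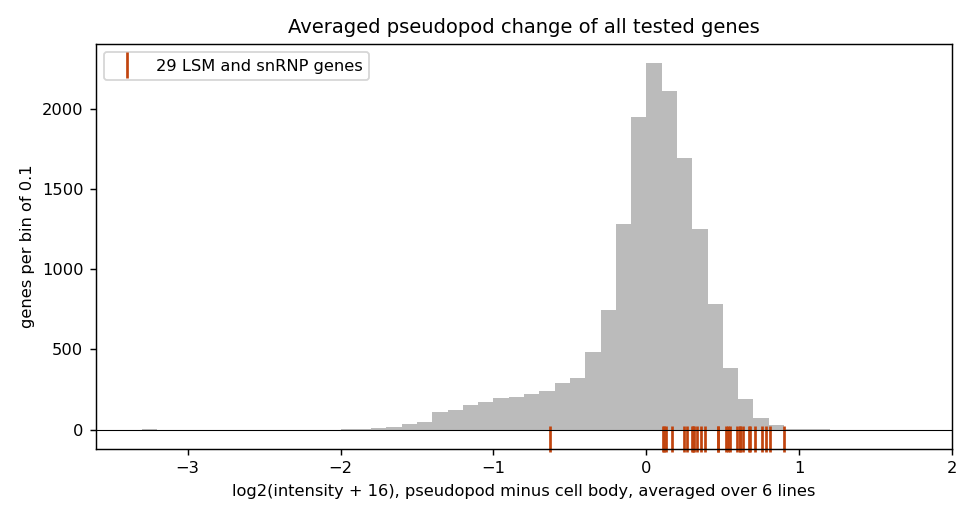
Histogram of the averaged pseudopod minus cell body difference on the log2(intensity + 16) scale (x axis) against the number of genes per bin of 0.1 (y axis) for 15399 genes, with each of the 29 tested members as a vertical mark under the histogram. Of the 29 marks 28 lie right of 0, and the 1 at the left, at -0.63, is SNRNP200.

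Averaged over the lines, the messenger RNAs of all 8 LSm ring genes, LSM1 to LSM8, rose, with a median difference of 0.59. By line they were less even: LSM1 was above 0 in each line but called in U87 alone, with 0.02 in U251. LSM5, a shared ring subunit, had the largest difference among the members with the brightest probe set of each gene, though not with other choices of probe set. Its intensity in the 18 pseudopod arrays was 1012.5 at the lowest, 1671.8 at the median and 2591.8 at the highest, against 472.9, 796.6 and 1816.1 in the 18 cell body arrays. The fractions overlapped over all lines, because lines differ in level, but in each line all pseudopod arrays lay above all cell body arrays. The log2 difference was 0.90 ± 0.08 (SE; adjusted p = 1.33e-10), 1.87-fold, and ranked 14th from the top among all genes tested. In HT1080, LSM5 read 1400.3, 1248.4 and 1504.3 in pseudopods against 565.2, 472.9 and 586.9 in cell bodies, its widest gap of any line. Its other probe sets gave 0.67 and 0.62. Averaging the probe sets of each gene, LSM5 differed by 0.79 and LSM7 by 0.81, and without probe sets that may bind several transcripts LSM5 differed by 0.62, below LSM3 (0.78) and SNRPF (0.76).

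LSM7, also shared by both rings, averaged 414.6 ± 117.8 in pseudopods and 237.2 ± 90.8 in cell bodies (SD, n = 18 arrays each, spread over lines included). Its largest difference was in U87, with 543.4, 450.1 and 322.1 in pseudopods against 109.1, 217.3 and 121.8 in cell bodies, where the groups did not overlap although each spanned a wide range. The averaged difference was 0.81 ± 0.09 (SE; adjusted p = 2.57e-08). LSM3 averaged 959.6 ± 252.1 in pseudopods and 554.3 ± 155.2 in cell bodies (SD, n = 18), a difference of 0.78 ± 0.08. In MDA231, LSM3 was 856.2, 891.5 and 980.5 in pseudopods against 459.6, 808.0 and 587.8 in cell bodies; the high cell body array is the one with the most CDH1.

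The remaining shared subunits differed less. LSM4 was 1590.4 at the lowest, 2013.9 at the median and 3257.1 at the highest in pseudopods, against 938.8, 1407.6 and 1947.5 in cell bodies, with a difference of 0.54 ± 0.05. LSM2 differed by 0.53 ± 0.06 and LSM6 by 0.52 ± 0.06. All pseudopod arrays lay above all cell body arrays in all 6 lines for 5 members (17.2%), against 1.07% of all genes. These were LSM2, LSM3, LSM4, LSM5 and the Sm subunit SNRPF. LSM6 in MDA435 read 415.0, 494.5 and 421.6 in pseudopods against 248.3, 289.5 and 268.4 in cell bodies, while in MDA231 its difference was 0.11. LSM12, which has an LSm fold but belongs to neither ring, rose by 0.61 ± 0.06, with 1559 ± 183 in pseudopods and 1023 ± 205 in cell bodies (SD, n = 18).

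**Figure D2:**
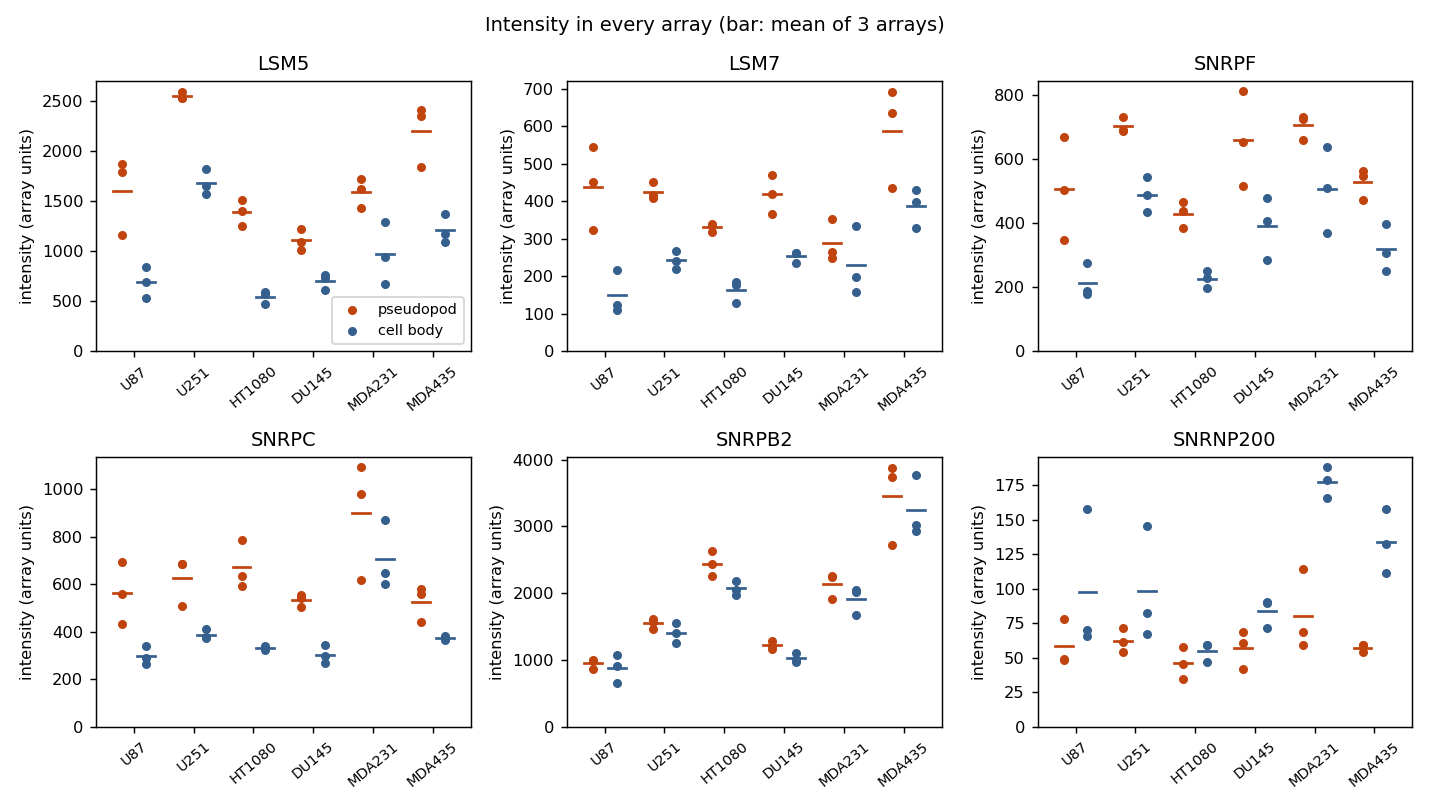
Deposited intensity (y axis, array units, from 0) of 6 members in each of the 36 arrays by line (x axis), pseudopod points left of cell body points, with a bar at the mean of 3 arrays. LSM5 and SNRPF are higher in all pseudopod arrays of each line, SNRPB2 differs more between lines than between fractions, and SNRNP200 is the member that is lower in pseudopods.

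LSM1 and LSM8 mark the cytoplasmic and the nuclear ring, so their differences were compared within lines. LSM8 in U87 was 553.8, 537.4 and 450.6 in pseudopods against 241.8, 290.3 and 200.5 in cell bodies, and LSM1 was 1726.8, 1532.7 and 1126.9 in pseudopods against 642.2, 1196.2 and 881.2 in cell bodies. The U87 groups did not overlap for LSM8, and overlapped for LSM1 by 1 array on each side. Over the lines the difference was 0.63 ± 0.07 for LSM8 and 0.33 ± 0.08 for LSM1 (SE). LSM1 minus LSM8 was -0.30 ± 0.12 (SD, n = 6 lines), below 0 in each of the 6 lines, with an exact two-sided sign-flip permutation p of 0.03125, the smallest that 6 lines allow. The gap ranged from -0.49 in U251 to -0.13 in MDA231. It rests on 1 probe set for each gene: with the mean of all probe sets it was -0.12 (exact p = 0.0625), and the other LSM8 probe sets, all dimmer, gave 0.29, 0.21 and -0.12. Without MDA231 pseudopod replicate 3 the gap was -0.27 and without MDA231 cell body replicate 1 it was -0.28, each with an exact p of 0.0625.

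**Figure D3:**
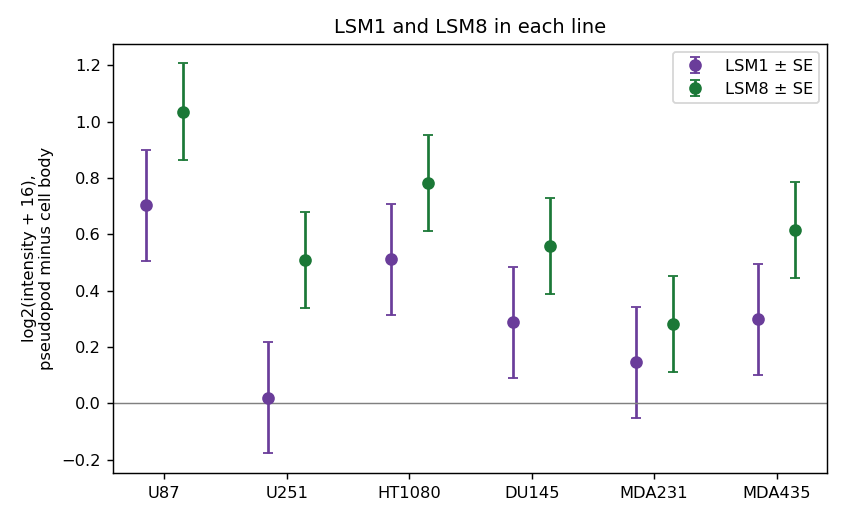
Pseudopod minus cell body difference on the log2(intensity + 16) scale (y axis) of LSM1 and LSM8 in each line (x axis), with the standard error of the limma fit. LSM8 lies above LSM1 in all 6 lines; the error bars of the pair overlap in each line other than U251.

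Averaged over the lines, the messenger RNAs of 7 of 7 tested Sm ring genes rose, with a median of 0.38. By value the differences were smaller than those of the LSm ring genes. SNRPF, an SmF subunit, was 347.7 at the lowest, 608.9 at the median and 813.4 at the highest in pseudopods, against 178.7, 339.6 and 639.5 in cell bodies, a difference of 0.76 ± 0.09 (SE). SNRPD1 differed by 0.71 ± 0.08 and SNRPD2, its ring neighbour, by 0.61 ± 0.07. SNRPD2 in HT1080 read 2113.6, 1744.3 and 1922.2 in pseudopods against 1000.6, 901.9 and 1105.8 in cell bodies, with no overlap.

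The other Sm subunits showed smaller differences: SNRPD3 0.38 ± 0.07, SNRPE 0.31 ± 0.07, SNRPG 0.30 ± 0.07 and SNRPB 0.25 ± 0.06 (SE). SNRPB, which carries SmB and SmB', was 2944 ± 571 in pseudopods and 2472 ± 428 in cell bodies (SD, n = 18), and its other probe set gave 0.22. For SNRPE, the dimmer probe sets gave 0.31 and 0.35. RefSeq lists 20 pseudogenes of SNRPG, 20 of SNRPC, 11 of SNRPE, 5 of LSM3 and 4 of SNRPF, and a probe set may bind such copies, so the values of these genes are uncertain to that extent. SNRPN, the brain form of SmB, was not tested: 11 probe sets that name it also name other genes, and its own probe set read 8.2 in pseudopods and 11.9 in cell bodies, under the filter of 24.4. SNRPF-DT, also under the filter, read 18.7 in pseudopods and 19.1 in cell bodies.

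Proteins of single particles varied more. In U1, which binds the 5' splice site, SNRPC rose by 0.68 ± 0.07 and SNRPA by 0.36 ± 0.07, while SNRNP70 gave 0.13 ± 0.06 and was not called (adjusted p = 0.0773), with 1398 ± 203 in pseudopods and 1288 ± 253 in cell bodies. SNRPC in DU145 was 504.1, 541.6 and 555.4 in pseudopods against 267.2, 296.0 and 342.1 in cell bodies, with no overlap. In U2, which binds the branch site, SNRPA1 rose by 0.31 ± 0.08 and SNRPB2 by 0.17 ± 0.06. The SNRPB2 call was lost with quantile normalization (0.08, adjusted p = 0.238). For SNRPA1, 3 of 4 probe sets were higher in pseudopods (0.31, 0.51 and 0.52) and the other, a dim one, was lower, with 31.1 in pseudopods and 113.0 in cell bodies, a difference of -1.38; which part of the gene it reads was not analysed here.

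In the minor spliceosome, which removes a rare class of introns, the 3 genes of the rule that belong to the U11/U12 particle rose. SNRNP25 rose by 0.67 ± 0.11, SNRNP35 by 0.47 ± 0.08 and SNRNP48 by 0.27 ± 0.09 (SE). The SNRNP48 call was lost with the 6 lines as the units of the fit (adjusted p = 0.0763) and with array weights (adjusted p = 0.0659). In the U7 ring LSM10 rose by 0.59 ± 0.10, whereas LSM11 gave 0.12 ± 0.05 (adjusted p = 0.0629). LSM11 was called higher under some settings, among them equal array medians (0.27).

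The tri-snRNP group held both directions. SNRNP27 rose by 0.47 ± 0.05; in U251 it was 864.0, 914.0 and 909.4 in pseudopods against 561.6, 645.8 and 545.0 in cell bodies, without overlap. SNRNP40, a U5 protein, gave 0.11 ± 0.09 (adjusted p = 0.31), and -0.01 without MDA231 and MDA435. SNRNP200, the helicase that unwinds U4 from U6, fell by 0.63 on the log2 scale (SE 0.10; adjusted p = 5.7e-06).

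SNRNP200 was dim. Its intensity was 34.9 at the lowest, 59.0 at the median and 114.0 at the highest in pseudopods, against 47.2, 90.1 and 188.0 in cell bodies. In MDA231 it read 59.0, 68.7 and 114.0 in pseudopods against 165.4, 178.5 and 188.0 in cell bodies, and in MDA435 59.1, 53.9 and 58.9 in pseudopods against 158.1, 111.5 and 132.2 in cell bodies. The groups did not overlap in these lines or in DU145, where 11.9%, 12.3% and 14.9% of all genes lay wholly below in MDA231, MDA435 and DU145. In U87, U251 and HT1080 they overlapped, and HT1080 gave the smallest difference, -0.21. The value comes from 1 probe set; 3 further probe sets that name SNRNP200 also name another gene and were not used.

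**Figure D4:**
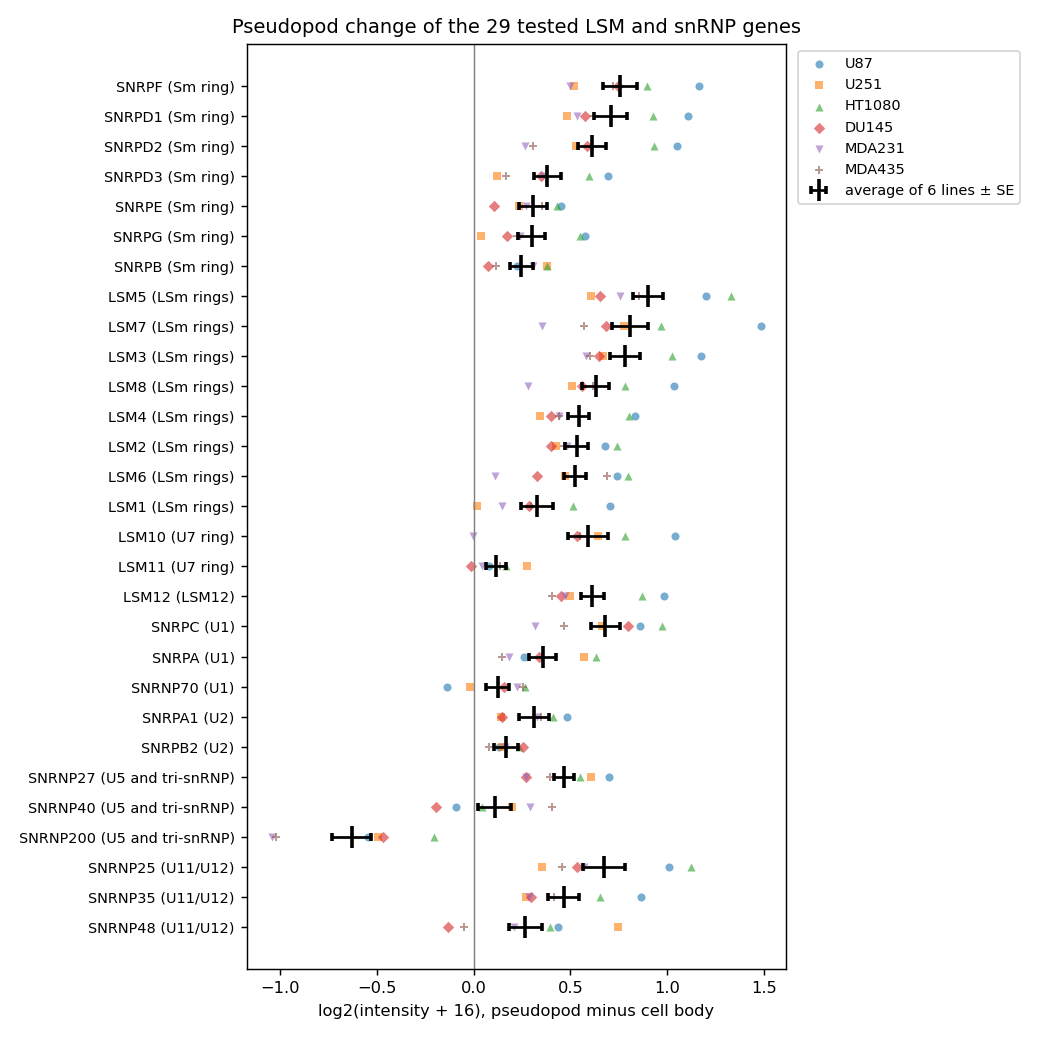
Pseudopod minus cell body difference on the log2(intensity + 16) scale (x axis) for the 29 tested members (y axis, grouped by particle), with a symbol for each line and a black bar for the average of 6 lines with its standard error. Most symbols lie right of 0 and U87 and HT1080 lie farthest right for most genes; SNRNP200 lies left of 0 in each line.

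By line, the number of members called differed widely. In U87, 19 members (65.5%) rose and 0 fell, against 11.7% and 11.8% of all genes. In HT1080, 19 (65.5%) rose, against 12.8% of all genes, and 0 fell, where 1855 of all genes did. In U251, 12 (41.4%) rose and 0 fell, against 5.36% and 9.33%. In MDA435, 9 (31.0%) rose and SNRNP200 (3.45% of members) fell, against 2.96% and 8.81%. In MDA231, LSM2, LSM4, LSM5 and LSM12 (13.8%) rose and SNRNP200 (3.45%) fell, against 1.18% and 4.9%. In DU145, SNRPC alone (3.45%) rose and 0 fell, against 0.825% and 2.16%.

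The median difference of the members was 0.70 in U87, 0.65 in HT1080, 0.42 in U251, 0.40 in MDA435, 0.34 in DU145 and 0.29 in MDA231. For all genes it lay between 0.01 and 0.09 in every line. Counts of separated arrays give another view of the lines with few calls. All pseudopod arrays lay above all cell body arrays for 16 members (55.2%) in DU145, against 16.7% of all genes. In MDA231 this held for 8 members (27.6%), against 9.11%. It also held for 25 members (86.2%) in HT1080, against 29.5% of all genes, and 18 (62.1%) in U251, against 22.0%. In U87 it held for 16 (55.2%), against 17.0%, and in MDA435 for 16 (55.2%), against 12.3%.

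The number of members called within a line changed when single arrays were left out. Calls over all genes were not counted by line under these settings, so the counts below have no background beside them. The U251 count fell to 5, 6 or 4 without 1 of its pseudopod arrays, and to 5 or 3 without cell body replicate 1 or 2. The MDA435 count fell to 2 without pseudopod replicate 2 and to 4 without cell body replicate 1 or 2; without its low-CDH1 arrays, pseudopod replicate 3 and cell body replicate 1, it was 3 and SNRNP200 was no longer called. The MDA231 count was 0 without pseudopod replicate 2 or cell body replicate 1 or 3, 1 without pseudopod replicate 1, and 3 without the high-CDH1 arrays, pseudopod replicate 3 and cell body replicate 2. SNRNP200 lost its MDA231 call without pseudopod replicate 1 or 2. DU145 had 0 calls without pseudopod replicate 2 or cell body replicate 1 or 2, and 7 without U87 pseudopod replicate 3; without its arrays of lowest CDH1, pseudopod replicate 1 and cell body replicate 3, it had 0. In U87, the members lay 0.34 under their group mean by median in pseudopod replicate 3, and 0.22 above it in cell body replicate 2.

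Numbers of calls do not show that the lines differ, so that difference was tested. In the limma F test of line differences in the pseudopod change, 0 of 29 members were called, against 1.18% of all genes. At an unadjusted p under 0.05 there were 5, or 17.2% (LSM12, LSM4, LSM6, LSM7 and SNRPD2), against 10.0% of all genes. LSM6 had the lowest unadjusted p, 0.0128 (adjusted p = 0.285). Without U87 pseudopod replicate 3, 2 members were called, and with array weights 10. With the 6 line differences as units, 24 members (82.8%) were called higher, against 29.0% of all genes, and 1 (3.45%) lower, against 19.3%.

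Cell body levels differed between lines for most members, as they did for most genes. Of 29 members 27 (93.1%) were called in the F test of cell body levels, against 80.6% of all genes. SNRPE and LSM1 were the exceptions (adjusted p = 0.189 and 0.264). SNRPB2 had the widest range, 3.68-fold between MDA435 and U87 on the log2(intensity + 16) scale, with 3762.5, 2928.9 and 3021.1 in MDA435 cell bodies against 650.9, 915.0 and 1072.4 in U87 cell bodies. LSM6 was 3.10-fold higher in DU145 than in MDA435, and LSM5 3.04-fold higher in U251 than in HT1080. By mean, U251 had the highest cell body level of 11 members, U87 the lowest of 10 and HT1080 the lowest of 9. Across the 29 members, level was taken as the log2 of the mean intensity over all arrays, without the added constant. Level and averaged difference had a Pearson correlation of 0.21 and a Spearman correlation of -0.01, as a description of genes that share the same arrays.

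Promoters of the members were read as a description of the genes. RefSeq promoter windows of 300 bases (250 before to 50 after the start, GRCh38.p14) were matched for 25 of the 29 tested members, with 32 windows; LSM1, LSM6, SNRPD1 and SNRNP35 are named only. The letters CCGGAAG, the core of an ETS factor motif, stood on either strand in 14 of 32 member windows (43.75%), in 10.3% of all 35116 windows and in 12.8% of the 22198 windows of coding genes. By gene they were found in 11 of 25 members (44.0%) and in 16.5% of 15842 coding genes. These coding genes were not limited to those tested on the arrays. The genes were LSM5, LSM8, SNRNP27, SNRNP200, SNRPA1, SNRPB, SNRPB2, SNRPC, SNRPD2, SNRPE and SNRPG, which include the member that fell.

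Of the other motifs searched on both strands, where matches of different motifs may overlap, CCAAT stood in 37.5% of member windows, 34.6% of all windows and 34.7% of those of coding genes. GGGCGG (GC box) stood in 53.1% of member windows, above the 45.0% of all windows but below the 56.3% of those of coding genes. TATAAA stood in 3.13% of member windows and 11.5% of all windows (9.47% of coding), and CACGTG in 3.13% of member windows and 7.26% of all windows (8.34% of coding). The longer NRF1 motif stood in 1 member window, that of LSM7, and the YY1 motif in 0 of 32, against 1.24% and 0.849% of all windows. A match of letters is a description and no binding was measured. Whether such letters relate to the difference between pseudopods and cell bodies was not tested.

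The stretches of 130 bases below, from 100 before to 30 after the start, are shown because LSM5 had the largest rise as measured with the brightest probe set, SNRPB the smallest of the Sm ring, SNRNP200 the fall, and LSM3 a large rise with no match; capitals mark CCGGAAG or its reverse complement. LSM5 has 2 starts in RefSeq and both are shown; the stretch of the upstream start holds no match, and its 300-base window holds one farther from the start.
LSM5, downstream start (GRCh38.p14, chr7:32490351-32490480, minus strand): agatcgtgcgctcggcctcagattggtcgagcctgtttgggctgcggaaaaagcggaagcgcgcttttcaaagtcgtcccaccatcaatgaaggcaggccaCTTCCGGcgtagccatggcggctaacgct
LSM5, upstream start (GRCh38.p14, chr7:32495254-32495383, minus strand): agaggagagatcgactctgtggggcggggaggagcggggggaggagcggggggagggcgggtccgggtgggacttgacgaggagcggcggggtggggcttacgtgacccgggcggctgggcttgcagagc
SNRPB (GRCh38.p14, chr20:2470760-2470889, minus strand): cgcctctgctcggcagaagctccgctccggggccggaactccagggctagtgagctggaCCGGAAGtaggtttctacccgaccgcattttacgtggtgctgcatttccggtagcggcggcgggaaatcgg
SNRNP200 (GRCh38.p14, chr2:96305517-96305646, minus strand): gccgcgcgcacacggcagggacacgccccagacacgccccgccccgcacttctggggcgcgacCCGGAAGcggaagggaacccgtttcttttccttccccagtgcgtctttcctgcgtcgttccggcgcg
LSM3 (GRCh38.p14, chr3:14178717-14178846, plus strand): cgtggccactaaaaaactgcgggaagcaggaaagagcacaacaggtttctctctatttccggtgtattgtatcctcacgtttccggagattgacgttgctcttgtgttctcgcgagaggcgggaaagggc

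Genes that work with these proteins were read beside them on the same scale. Of 21 tested genes of snRNP assembly and import, 13 rose and 0 fell, with a median of 0.21; PHAX, the export adaptor of small nuclear RNAs, rose by 0.70 ± 0.06, COPRS, a partner of the Sm-methylating enzyme PRMT5, by 0.60 ± 0.06, GEMIN6 of the SMN complex by 0.46 ± 0.09 and the cap-binding NCBP2 by 0.41 ± 0.06 (SE). Of 32 other snRNP proteins, 22 rose and 2 fell, with a median of 0.29. ZMAT5, a U11/U12 protein, was 67.0 ± 17.0 in pseudopods and 31.4 ± 12.5 in cell bodies (SD, n = 18) and differed by 0.83. SF3B5 of U2 differed by 0.79 and ZCRB1 of U11/U12 by 0.73. RNPC3 and PDCD7, also U11/U12 proteins, gave 0.04 and -0.09 and were not called. PRPF39, a U1-associated factor, fell by 0.58, with 290.7 ± 67.9 in pseudopods and 445.6 ± 116.7 in cell bodies. The U2 subunit SF3B1 fell by 0.14.

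The partners of the cytoplasmic LSm ring showed fewer calls by value. Of 13 decapping and decay genes, 5 rose and 1 fell, with a median of 0.15. The scavenger decapping enzyme DCPS rose by 0.55 ± 0.07, PATL1, which binds the LSM1 ring, by 0.39 ± 0.06, LSM14A by 0.31 ± 0.06 and DCP1B by 0.26 ± 0.05, and the exonuclease XRN1 fell by 0.20. Of 10 tested histone pre-mRNA processing genes, 5 rose and 2 fell, with a median of 0.11. The histone stem-loop binding protein SLBP rose by 0.40 ± 0.05 and the polyadenylation factor CPSF4 by 0.27 ± 0.07, whereas the scaffold SYMPK fell by 0.59 and NPAT, a histone transcription factor, by 0.31. These 4 lists share the arrays and the background of 29.5% higher and 20.8% lower, and whether they differ from the LSM and snRNP genes was not tested.

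The 23 further probe sets of the members give a second reading of the same messengers. Of these, 20 passed the filter: 15 were higher in pseudopods, 1 was lower (that of SNRPA1) and 4, of LSM11 and LSM8, were not called. With each probe set as its own row, 7862 of all 28957 probe sets tested were called higher and 6650 lower. LSM4 gave 0.86 with its other probe set against 0.54 with the brightest, SNRNP27 0.73 against 0.47, and SNRPD1 0.56 against 0.71. The size of a difference therefore varied between probe sets of a gene by more than its standard error in these 3 genes.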

How the data were processed

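The authors deposited linear intensity values of 36 Affymetrix arrays, 54593 probe sets each; RMA and Partek are named per the submitters' processing notes, without role or version, and RMA would give log2 values, so which program made the deposited intensity values is unknown. The plan called for log2 values, with log2(intensity + 16) computed first if the deposited values were linear, which was done here. The added constant understates changes of dim genes. Platform annotation gave 41074 probe sets 1 symbol, 1798 several and 11721 none; 41020 symbols were updated through Entrez numbers (RefSeq, GRCh38.p14). Each of 19775 genes took its brightest probe set, and the 15399 genes with at least 1 group mean at or above 24.4, the median of the whole table, were tested with limma 3.58.1 in R 4.3.3: 12 group means, 24 residual degrees of freedom, Benjamini-Hochberg adjusted p under 0.05 over all genes. LSM1 minus LSM8 used an exact sign-flip permutation test. Array number limits precision.

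Members, lists and tests were chosen with earlier results of these data known. All members are named, and of each further list up to 4 called genes with the largest change. SF3B1, XRN1, RNPC3 and PDCD7 were added after their values were seen. Lists of melanocytic, epithelial and blood markers gave 0, 2 and 0 genes higher and 2, 1 and 1 lower. On simulated data, 200 of 15399 genes were changed. The averaged fit recovered 90% of 1.5-fold and 97% of 2-fold changes with 7 false calls, and the U87 fit 20% and 70% with 3. The simulation drew noise independently for each gene and array and gave a changed gene the same change in every line. Real arrays have deviations shared by many genes, so these rates may not hold for them. Alternatives were the added constant, the filter, the probe set rule, array scaling, array weights, a replicate block, lines left out and each array left out. Same-numbered arrays did not in general deviate together (correlations from -0.78 to 0.69), so numbers were not taken to pair samples. In MDA435, pseudopod replicates 1 and 3 deviated most like cell body replicates 3 and 1. In MDA231, pseudopod replicates 2 and 3 deviated most like cell body replicates 3 and 2. The main fit used no pairing, so deviations shared by such arrays stayed in its error. Figures were drawn with matplotlib 3.10.9 in Python 3.11.15.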

Additional observations from a re-analysis of the deposited data

How the results depend on the processing

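Averaged over lines, 24 to 28 of 29 members rose under the alternatives with 29 tested, and 1 fell. Falls differed with no filter (2) and without probe sets that by name may bind several transcripts (2 of 23 tested). Those probe sets are called shared below. Among 1502 combinations of a member and a setting, 1480 kept their direction and call, 4 lost it, 16 gained it and 2 turned round (SNRPA1 without shared probe sets, -1.38; SNRNP40 without MDA231 and MDA435, -0.010). Array scaling moved the share of higher calls among all calls to 73.6% with equal array medians (median of all genes 0.17) and 64.9% with quantile normalization (0.09), against 58.7% (0.05) as deposited. Members called were then 28 higher and 1 lower, 25 and 1, and 25 and 1.

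DU145 rises, 1 as reported, numbered 7 with a constant of 64, 3 with a filter at 2 times the median, 6 with the mean of probe sets, 4 with each probe set apart, 2 with equal medians, 3 with quantile normalization, 16 with array weights, 7 without MDA231 and MDA435, 7 without the high-CDH1 MDA231 arrays 2 without the low-CDH1 MDA435 arrays and 0 without the lowest-CDH1 DU145 arrays (the last 3 chosen after seeing the data). MDA231 rises numbered 1 with a constant of 1, 2 without shared probe sets, 7 with equal medians, 12 with array weights and 2 without the lowest-CDH1 DU145 arrays; MDA435 rises 19 with array weights and 3 without its low-CDH1 arrays, where falls numbered 0. Without shared probe sets falls numbered 1 in U87, U251, HT1080 and DU145 and 2 in MDA231 and MDA435; with array weights 1 in U251 and DU145. Line differences in change were called for 10 members with array weights, and cell body levels for 17 without MDA231 and MDA435. LSM1 minus LSM8 was -0.12 with the mean of probe sets and -0.34 without MDA231 and MDA435 (exact p = 0.125, the smallest 4 lines allow). The cause of these moves was not tested. Calls over all genes were not counted by line under these settings. In the averaged fit, array weights gave 5363 genes higher and 4020 lower, against 4550 and 3204 as reported. With a replicate block, which the numbers do not support, rises numbered 24 on average over lines, 7 in U251, 0 in DU145 and 1 in MDA231; SNRPB2 was not called (adjusted p = 0.0867).

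Leaving out 1 array at a time, averaged rises numbered 25 to 26, U87 17 to 21 (falls 0 to 1), U251 3 to 13, HT1080 16 to 21, DU145 0 to 7, MDA231 0 to 6 (falls 0 to 1), MDA435 2 to 9, line differences 0 to 2, cell body levels 26 to 27, and line units 24 to 26. The median of members minus that of all genes was 0.41 to 0.45, and LSM1 minus LSM8 -0.35 to -0.26. Fits with lines as units were not run with array weights or the block, nor cell body levels with the block. The added constant understates differences of dim probe sets such as that of SNRNP200.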
